A study of Mus musculus with 30 samples.

Results

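The cells described here are splenic B cells of mice that were picked from single-cell RNA sequencing by genes of B1 cells. A cell was taken if it held at least 3 UMIs (unique molecular identifiers, each standing for 1 captured RNA molecule) of the B cell genes Cd79a, Cd79b and Ms4a1 together and at least 2 UMIs of 5 gate genes together, namely Bhlhe41, Il5ra, Nid1, Sox5 and 1810046K07Rik. It had to hold no UMI of Cr2, Fcer2a, Mki67 or Top2a, at most 1 UMI of the 3 Cd3 chains and fewer than 10 UMIs of Jchain, which leaves out marginal zone, follicular and dividing cells, T cells and plasma cells. These values chose the cells, and the 16 genes of the rule are therefore described without a test. The rule found 1804 cells among 22776 B lineage cells, 46886 cells that passed the filters (at least 200 genes and at most 10% mitochondrial UMIs) and 53644 deposited barcodes. They came from 4 libraries of RBC-depleted splenocytes, with 379 and 624 cells in Smc3-WT replicates 1 and 2 and 376 and 425 cells in Smc3-cKO replicates 1 and 2.

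Smc3 encodes a core subunit of cohesin, which folds chromatin into loops and holds sister chromatids together. The series studies cohesin and the transcription factor PU.1 in conventional dendritic cells, and 26 of its 30 samples (sorted dendritic cells, ChIP-seq and Hi-C) were not analysed here. The labels name the genotypes Smc3-WT and Smc3-cKO. They do not name the deleted exons, the Cre line or the cells in which it acts, the age of the mice behind these libraries, or whether each library is a separate animal, so p-values measure the spread between libraries, which may be technical. The 4 libraries held 40367056 to 51299056 UMIs, and the median mitochondrial share over all deposited barcodes ran from 3.25% to 7.51%, highest in Smc3-WT 1. Between 36 and 61 barcodes (0.382% to 0.432% of the smaller library) were shared by any pair of libraries, none of them among the 1804 cells. In Smc3-WT 1, 64.9% of the picked cells held at least 2 UMIs of T cell, NK cell, myeloid or dendritic cell markers, against 26.6% to 31.1% in the other 3 libraries.

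B1 cells are an innate-like branch of B cells that renews itself from early life onward, lives mainly in the body cavities with a small share in spleen, and secretes natural IgM without prior immunization. BHLHE41, a basic helix-loop-helix repressor, maintains B1a cells and their receptor for interleukin 5, and CD5 and CD43 (Spn) are the usual surface marks. Follicular B cells, the recirculating majority, carry CD23 (Fcer2a) and IgD, and marginal zone B cells carry CD21 (Cr2) and CD1d. Transitional B cells, recent arrivals from bone marrow, carry CD93 and high CD24.

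The gate genes did not contribute equally. Sox5, a SOX family transcription factor, gave 68.7% to 84.4% of the gate UMIs of a library. It was detected in 84.2%, 86.2%, 88.8% and 84.7% of the picked cells, in the order Smc3-WT 1, Smc3-WT 2, Smc3-cKO 1 and Smc3-cKO 2, which is used for all values given by library. Sox5 was the dominant gate gene in every library, and 209, 258, 203 and 156 cells entered with Sox5 as the only detected gate gene.

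Il5ra, the interleukin 5 receptor alpha chain, was detected in 37.2%, 45.0%, 35.4% and 44.2% of the cells. Bhlhe41 was detected in 5.54%, 16.7%, 13.0% and 24.7%, 1810046K07Rik in 5.54%, 13.5%, 6.38% and 18.8%, and Nid1, which encodes the basement membrane protein nidogen, in 5.81%, 7.85%, 5.59% and 12.2%. These 4 gate genes were thus each detected in a minority of the cells of every library. Sox5 UMIs were also present in 4.41% to 7.82% of the kept cells that lacked any UMI of the 3 B cell genes. Whether these UMIs were stray RNA was not tested. For Bhlhe41 the share was 0.0484% to 0.95%. The median depth was 2558 to 4106 UMIs in those cells and 2638 to 4256 in B lineage cells. The label B1-like therefore rests mostly on Sox5, and the 1804 cells are called gated B cells below.

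**Figure D1:**
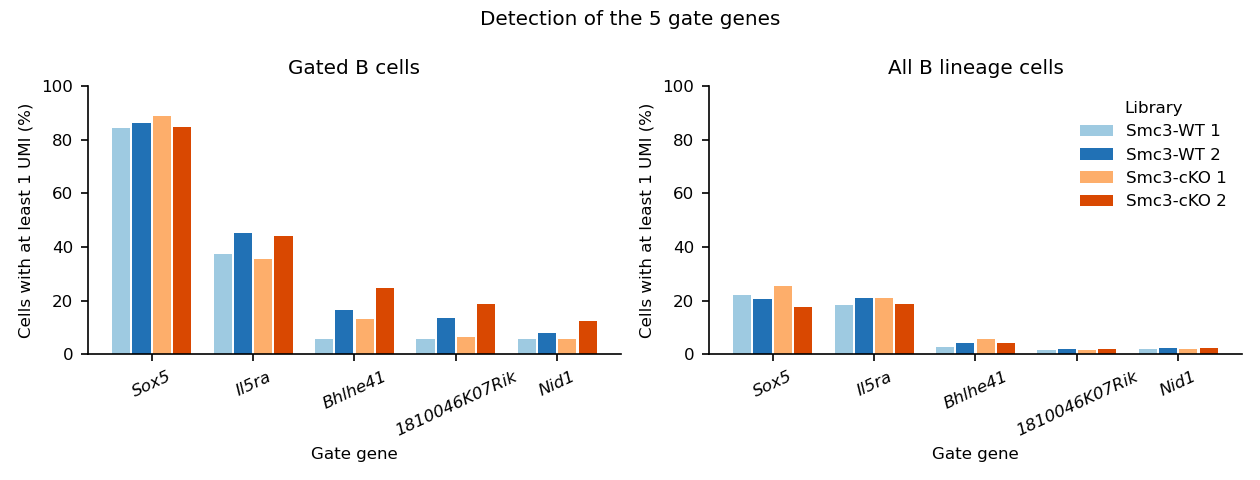
Share of cells with at least 1 UMI of each gate gene (y axis, %), by library (bar colour), in the gated B cells (left) and in all B lineage cells (right). Sox5 reached 84.2% to 88.8% of the gated cells, and Bhlhe41 5.54% to 24.7%. These genes chose the cells, so the left panel describes the rule.

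The promoters of 3 genes are shown because the gated cells are split next by UMIs of Bhlhe41, Nid1 or 1810046K07Rik. Bhlhe41 is higher in the part with such UMIs by that choice. Fcrl5 was higher in that part, and Vpreb3 in the other. The sequences are from RefSeq (GRCm38.p6) and run from 250 bases before to 50 bases after the gene's start, 5′ to 3′ on the gene's strand. Capitals mark CACGTG, the E-box core bound by BHLHE41-type proteins, and AACAAT, a core of SOX sites, both searched on both strands.
Bhlhe41: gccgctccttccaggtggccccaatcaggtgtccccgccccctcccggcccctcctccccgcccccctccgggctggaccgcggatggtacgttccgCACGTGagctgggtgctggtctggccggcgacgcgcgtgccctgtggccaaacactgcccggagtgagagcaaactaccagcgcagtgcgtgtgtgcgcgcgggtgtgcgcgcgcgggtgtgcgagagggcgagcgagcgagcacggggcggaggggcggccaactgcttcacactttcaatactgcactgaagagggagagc
Fcrl5: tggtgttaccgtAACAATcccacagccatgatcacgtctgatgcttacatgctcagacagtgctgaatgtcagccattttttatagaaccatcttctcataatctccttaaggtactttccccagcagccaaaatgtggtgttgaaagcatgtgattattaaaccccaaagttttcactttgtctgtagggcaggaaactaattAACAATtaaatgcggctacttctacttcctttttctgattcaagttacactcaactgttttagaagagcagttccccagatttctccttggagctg
Vpreb3: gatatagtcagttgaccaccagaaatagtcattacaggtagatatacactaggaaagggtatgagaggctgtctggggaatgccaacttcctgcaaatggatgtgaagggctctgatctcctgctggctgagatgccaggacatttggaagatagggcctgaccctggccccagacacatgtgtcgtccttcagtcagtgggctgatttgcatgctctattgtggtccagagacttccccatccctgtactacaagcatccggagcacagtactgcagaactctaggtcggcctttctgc
The Bhlhe41 window (chr6:145865371-145865670, minus strand) held 1 CACGTG and no AACAAT. The Fcrl5 window (chr3:87435532-87435831, plus strand) held 2 AACAAT and no CACGTG, and the Vpreb3 window (chr10:75948050-75948349, plus strand) held neither. Of 32851 promoter windows of the same length, 7.15% held CACGTG and 10.7% held AACAAT. A match describes the letters only.

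Cells with at least 1 UMI of Bhlhe41, Nid1 or 1810046K07Rik are called the core below, a split made after the levels of the gate genes had been seen and described without a test. The core held 50, 176, 72 and 166 cells, which is 13.2%, 28.2%, 19.1% and 39.1% of the gated cells of each library (exact 95% binomial intervals 9.95% to 17.0%, 24.7% to 31.9%, 15.3% to 23.5% and 34.4% to 43.9%, counting error only). The remainder, 329, 448, 304 and 259 cells, had entered on Sox5 or Il5ra alone. The core was deeper, with a median of 3871, 4426, 5352 and 4449 UMIs per cell against 2918, 2483, 4056 and 2464 in the remainder.

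Of 24 listed B1 genes that the rule did not use, 17 were higher and 2 lower in the core than in the remainder in all 4 libraries. The share of all genes that were higher in the core was not counted. Levels are CPM, the UMIs of a gene summed over a library's cells and scaled to a common library total. Fcrl5, an inhibitory Fc receptor-like protein of innate-like B cells (chromosome 3, 87435777 to 87500678), stood at 258, 362, 489 and 512 CPM in the core and at 30.7, 55.9, 22.7 and 96.9 CPM in the remainder. Every library of the core was above every library of the remainder. Cd80, a costimulatory ligand, stood at 58.9, 63.7, 81.2 and 91.9 CPM against 9.02, 9.44, 10.6 and 14.8 CPM, again without overlap. Zbtb32, a zinc finger repressor that restrains B1a cell turnover, stood at 13.6, 34.3, 21.5 and 22.7 CPM against 0.902, 3.15, 1.52 and 1.35 CPM.

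Pstpip2, a cytoskeletal adaptor, stood at 530, 394, 422 and 477 CPM in the core and 42.4, 70.0, 71.2 and 79.4 CPM in the remainder. Cd300lf, an inhibitory receptor for phospholipids, stood at 54.4, 126, 103 and 154 CPM against 9.02, 10.2, 12.1 and 20.2 CPM, and Atxn1, a transcriptional co-repressor, at 907, 904, 1081 and 1372 CPM against 178, 201, 97.0 and 271 CPM. For all of these the ranges of core and remainder did not overlap. With each cell thinned to 1500 UMIs, Fcrl5 was still detected in 20%, 30.8%, 29.2% and 39.2% of the core against 4.27%, 3.26%, 3.36% and 7.94% of the remainder (unthinned 30.0%, 48.3%, 48.6% and 64.5% against 5.78%, 6.47%, 4.93% and 10.04%). In follicular-like cells, defined below, the thinned share of Fcrl5 was 1.55% to 2.93%. Cd5 was rare in both parts, in 8.0%, 4.07%, 1.39% and 3.01% of the thinned core. In the thinned remainder its share was 1.52%, 2.33%, 1.34% and 1.59%.

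Of 9 listed genes of transitional B cells, 7 were lower in the core than in the remainder in all 4 libraries, and 1, Myb, was higher in all 4. Other lists also held many genes lower in the core in all 4 libraries. They numbered 6 of 10 follicular genes (3 higher), 16 of 28 B lineage factors (7 higher) and 10 of 23 cytokine and receptor genes (2 higher). The share of all genes that were lower in the core was not counted. Vpreb3, a chaperone of the pre-B and immature B cell receptor, stood at 218, 520, 316 and 296 CPM in the remainder and at 68.0, 99.2, 119 and 56.6 CPM in the core. Cd93 stood at 17.1, 29.1, 47.0 and 39.1 CPM against 9.07, 14.7, 14.3 and 6.29 CPM, and Cd24a at 279, 421, 399 and 417 CPM against 258, 216, 282 and 261 CPM. Vpreb3 and Cd93 did not overlap between the parts, and for Cd24a the remainder of Smc3-WT 1 lay below the core of Smc3-cKO 1. Serinc5, a multi-pass membrane protein, stood at 374, 277, 463 and 298 CPM against 159, 57.5, 222 and 56.6 CPM, and Zfp608, a zinc finger protein, at 502, 423, 583 and 451 CPM against 159, 110, 167 and 75.5 CPM, without overlap.

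**Figure D2:**
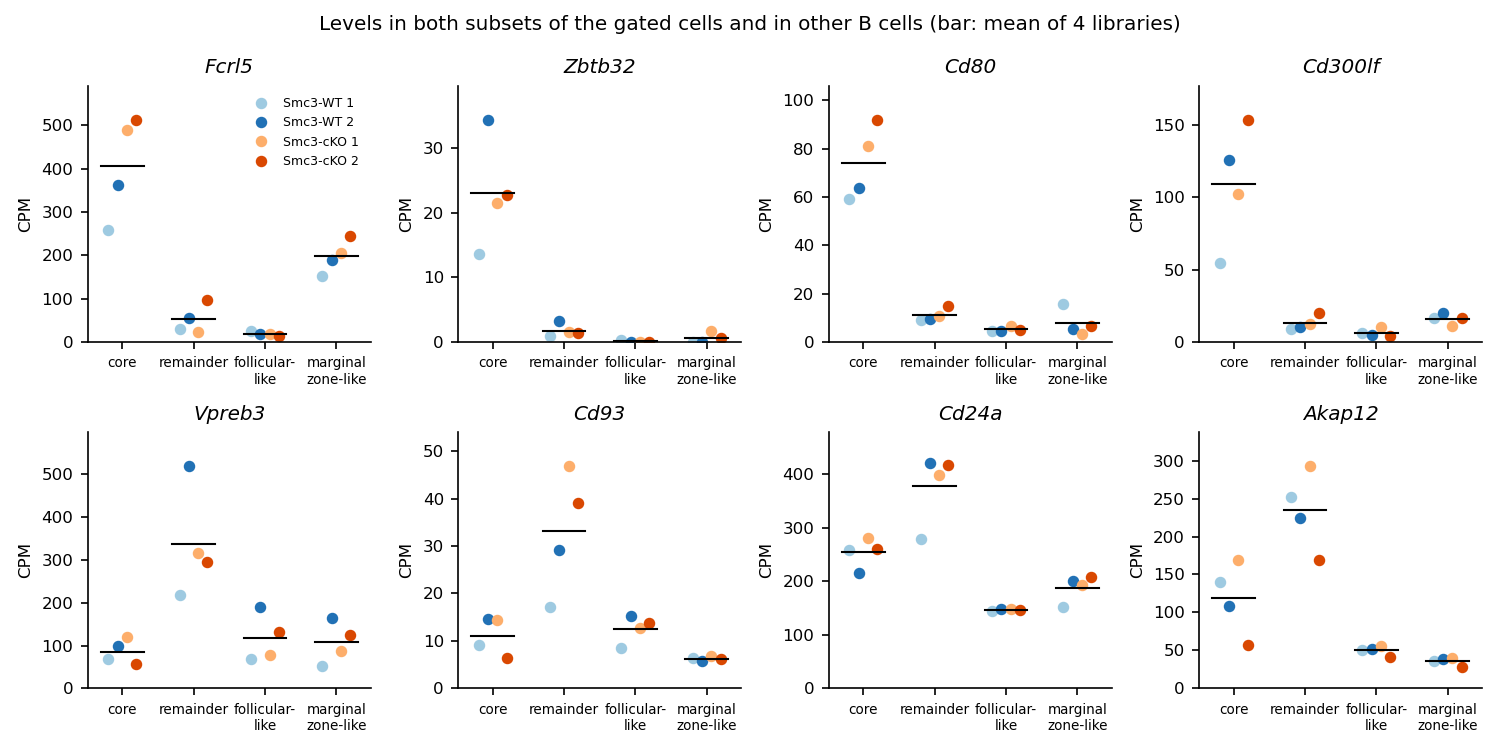
Levels of 8 genes outside the rule (y axis, CPM, from 0) in the core, the remainder, follicular-like and marginal zone-like cells, 1 point per library and a bar at the mean of 4 libraries. Fcrl5, Zbtb32, Cd80 and Cd300lf (top) were highest in the core, and Vpreb3, Cd93, Cd24a and Akap12 (bottom) in the remainder, for example Vpreb3 at 218 to 520 CPM against 56.6 to 119 CPM in the core.

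Cells just inside and just outside the threshold overlapped in these genes. Among B lineage cells that met the other criteria, Fcrl5 stood at 34.3, 37.3, 79.7 and 91.9 CPM with a single gate UMI (192, 337, 107 and 259 cells) and at 49.6, 53.5, 24.9 and 89.3 CPM with 2 gate UMIs (92, 186, 89 and 127 cells). With at least 4 gate UMIs it stood at 82.9, 247, 188 and 435 CPM. Vpreb3 stood at 94.0, 400, 252 and 254 CPM with 1 gate UMI and at 165, 466, 290 and 195 CPM with 2.

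Clustering of the gated cells gave 8 groups, described here by their leading genes. Clusters 5 and 6, with 200 and 277 cells, held 52.0% and 81.2% core cells, against 8.05% to 9.88% in clusters 1 to 4. Cluster 6 was led by Fras1, Etl4, the gate gene 1810046K07Rik, Pstpip2 and Lmo7 and held Fcrl5 at 568 CPM. Cluster 5 was led by Cadm1, St6galnac3 and Ptk2 and held Cd80 at 98.8 CPM, Fcrl5 at 277 CPM and Pstpip2 at 66.7 CPM. Cluster 2, the largest with 567 cells, was led by Wfdc21, Vpreb3 and Bmf, and held Vpreb3 at 497 CPM and Fcrl5 at 7.74 CPM.

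The other clusters followed single libraries or other lineages. Cluster 1 held 220 cells, 131 of them from Smc3-WT 1, and haemoglobin genes were among its leading genes. Cluster 3 held 236 cells, 156 of them from Smc3-cKO 1, and the interferon-stimulated genes Oasl1, Usp18 and Oas2 were among its leading genes. Cluster 4 (216 cells) was led by Rapgef4 and Gpr174. Clusters 7 and 8 (44 cells each) carried T cell genes (Skap1, Themis) and myeloid genes (Lyz2 at 1307 CPM), and 29 and 22 of their cells were called doublets, against 0 to 3 in the other clusters.

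**Figure D3:**
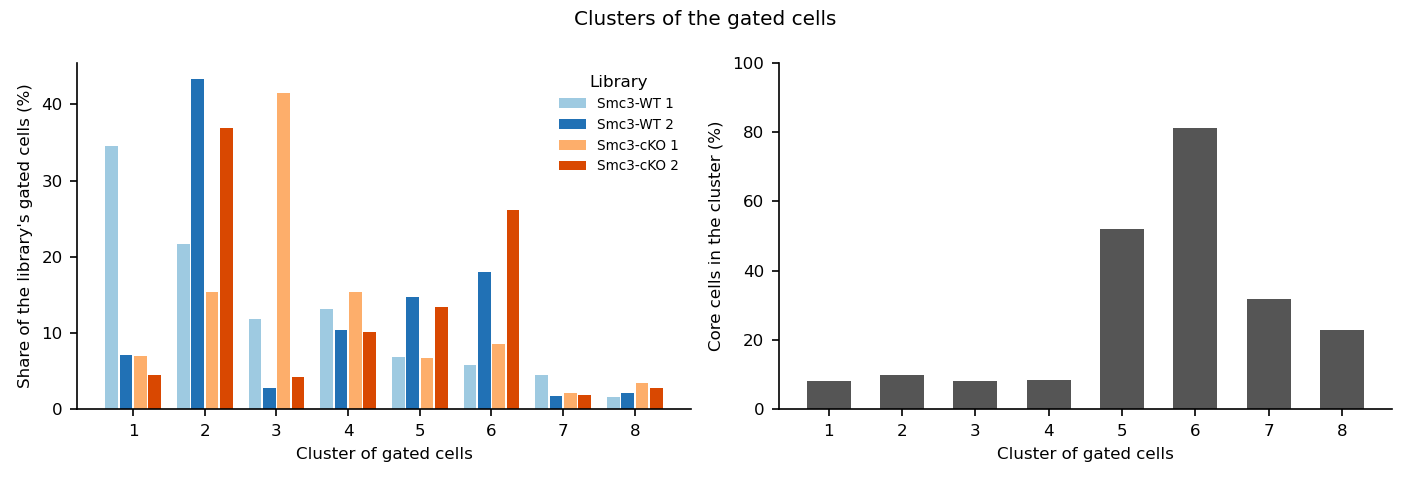
Left, share of each library's gated cells (y axis, %) that fell in each of the 8 clusters, with bars coloured by library. Right, share of core cells in each cluster (%). Clusters 5 and 6 held 52.0% and 81.2% core cells, cluster 1 took 34.6% of Smc3-WT 1 and cluster 3 took 41.5% of Smc3-cKO 1.

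The gated B cells were then compared with 2 other B cell classes of the same libraries that held no gate UMI. Follicular-like cells (4062 cells) had at least 1 UMI of Fcer2a and at most 1 of Cr2, and marginal zone-like cells (2543 cells) had no Fcer2a and at least 2 UMIs of Cr2. UMIs were summed per library and class and tested with edgeR's quasi-likelihood test with the library as a block (n = 4 libraries) and Benjamini-Hochberg adjustment at 0.05, leaving out the rule genes and mitochondrial genes. Log2 differences are gated over the other class, with their standard error. Because the classes were picked by marker UMIs, the direction of genes that vary with those markers is partly set by the choice of cells. The median depth of the gated cells was 3001, 2714, 4170 and 2876 UMIs, against 2664, 2507, 3882 and 2338 in follicular-like cells and 2928, 2866, 4271 and 2714 in marginal zone-like cells.

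Against follicular-like cells, 10032 genes were tested, of which 715 (7.13%) were higher and 502 (5%) lower in the gated cells, 12.1% in all. Against marginal zone-like cells, 9361 genes were tested, of which 720 (7.69%) were higher and 548 (5.85%) lower, 13.5% in all. Without Smc3-WT 2 the totals fell from 1217 to 750 and from 1268 to 758, and DESeq2 called 659 and 614.

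Lmo7, a LIM domain protein (chromosome 14, 101729928 to 101934708), stood at 28.6, 72.8, 49.5 and 146 CPM in the gated cells, at 0.671 to 1.15 CPM in follicular-like cells and at 0 to 5.88 CPM in marginal zone-like cells. Its log2 difference was 6.28 ± 0.26 and 4.52 ± 0.25 (edgeR adjusted p = 1.22e-08 and 1.89e-08), and the classes did not overlap. Agbl1, a cytosolic carboxypeptidase (chromosome 7, 76229591 to 77124698), stood at 3723, 2368, 3640 and 1707 CPM against 117 to 448 CPM and 78.6 to 231 CPM. Its differences were 3.34 ± 0.12 and 4.10 ± 0.12 (edgeR adjusted p = 4.52e-09 and 2.26e-11), again without overlap.

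Pstpip2 stood at 123, 197, 156 and 285 CPM in the gated cells, against 6.71 to 18.9 CPM in follicular-like and 5.53 to 13.6 CPM in marginal zone-like cells, with differences of 4.18 ± 0.26 and 4.37 ± 0.24. Its classes did not overlap. Other genes among the 15 with the largest rise in both comparisons were Ralyl, Dusp10 and Slco5a1, with log2 differences from 2.02 to 3.62. Atxn1 (2.60 ± 0.21), Nr3c2, the mineralocorticoid receptor (2.30 ± 0.31), and Ahr, the aryl hydrocarbon receptor (2.22 ± 0.22), were among the 15 against follicular-like cells. Serinc5 (2.62 ± 0.11), Akap12 (2.41 ± 0.12) and Myb (2.23 ± 0.19) were among the 15 against marginal zone-like cells.

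Icosl, the ligand of the T cell costimulator ICOS (chromosome 10, 78069368 to 78079525), stood at 17.3, 11.5, 14.4 and 11.7 CPM in the gated cells, against 58.1 to 69.8 CPM in follicular-like and 61.4 to 70.5 CPM in marginal zone-like cells. Its differences were -2.19 ± 0.14 and -2.28 ± 0.15 (edgeR adjusted p = 4.79e-07 and 1.46e-07). Ccr6, a chemokine receptor, stood at 20.3, 28.7, 24.2 and 26.7 CPM against 77.4 to 112 CPM and 101 to 121 CPM, with differences of -1.91 ± 0.10 and -2.11 ± 0.12. Neither gene overlapped between classes.

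Rapgef4, an exchange factor activated by cAMP, Gpr174, a lysophosphatidylserine receptor, Rasgef1b and the class II gene H2-Eb2 were also among the 15 largest falls in both comparisons, between -2.22 and -1.54. Stat4 (-1.74 ± 0.11) was among the 15 against follicular-like cells, and Ptpn14 (-2.44 ± 0.16) and Myof (-1.76 ± 0.15) were among those against marginal zone-like cells. Of the genes named by rank against follicular-like cells, 8 of those that rose had a RefSeq promoter window, of which 0 held CACGTG and 1 held AACAAT. Of those that fell 13 had one, of which 1 held CACGTG and 1 held AACAAT.

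Of 24 genes listed for B1 cells that the gate did not use, 23 passed the filter on low counts against follicular-like cells, and 19 of them were higher and 0 lower (edgeR adjusted p under 0.05). The median log2 difference was 1.26, against 0.012 over all genes tested. Against marginal zone-like cells 15 of 22 were higher and 1, Pdcd1lg2, was lower, with a median of 1.18 against -0.00064. Over the alternative settings, in which the number tested varied, 13 to 21 were higher and 0 to 1 lower than in follicular-like cells. Against marginal zone-like cells 10 to 18 were higher and 0 to 2 lower. The list was written with earlier results of these data known, and genes that passed the filter through the gated cells had to be high there.

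Cd80 rose by 2.64 ± 0.24 and 2.23 ± 0.35 log2 units over follicular-like and marginal zone-like cells (edgeR adjusted p = 7.96e-06 and 4.36e-04). Its levels were 17.3, 30.7, 27.6 and 54.6 CPM in the gated cells, 4.55 to 6.54 CPM in follicular-like cells and 3.36 to 15.8 CPM in marginal zone-like cells, without overlap. Plscr1, a phospholipid scramblase, stood at 12.8, 38.8, 20.7 and 46.2 CPM against 4.70 to 10.9 and 6.73 to 13.5 CPM. It rose by 2.12 ± 0.32 and 1.71 ± 0.26, with an overlap in marginal zone-like cells, whose highest library lay above the gated cells of Smc3-WT 1. Ahnak, a large scaffold protein, rose by 1.70 ± 0.12 and 2.26 ± 0.21, from 44.0 to 68.0 and 24.5 to 55.9 CPM to 142, 226, 147 and 233 CPM.

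S100a6, a calcium-binding protein, stood at 33.9, 318, 156 and 245 CPM in the gated cells and rose by 1.70 ± 0.22 and 1.99 ± 0.24, although Smc3-WT 1 lay within the range of follicular-like cells (34.0 to 78.2 CPM). Cd5, the inhibitory co-receptor of B1a cells, stood at 20.3, 23.0, 9.77 and 22.1 CPM against 3.44 to 13.7 CPM and 1.68 to 15.1 CPM. It rose by 1.66 ± 0.33 and 1.56 ± 0.31 (edgeR adjusted p = 0.00409 and 0.0024), and the classes overlapped through Smc3-WT 1 of the other classes and Smc3-cKO 1 of the gated cells. With cells of at least 500 genes and at most 5% mitochondrial UMIs the Cd5 call against follicular-like cells was lost (adjusted p = 0.0803). Spn, the other surface mark, stood at 28.6, 21.6, 29.9 and 40.3 CPM against 11.8 to 26.3 CPM and rose by 0.82 ± 0.22 over follicular-like cells (edgeR adjusted p = 0.0281) with overlapping ranges, a call lost without Smc3-WT 2, Smc3-cKO 1 or Smc3-cKO 2 (0.0716 to 0.123).

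Fcrl5 separated the 2 comparisons. It stood at 68.5, 176, 135 and 312 CPM in the gated cells, at 14.1 to 24.5 CPM in follicular-like cells and at 152 to 243 CPM in marginal zone-like cells. It rose over follicular-like cells by 3.16 ± 0.29 (edgeR adjusted p = 8.08e-06) and did not pass the test against marginal zone-like cells (-0.23 ± 0.16, adjusted p = 0.427). Cd9, a tetraspanin of B1 and marginal zone cells, behaved alike in the test, with 1.52 ± 0.33 (adjusted p = 0.008, lost without Smc3-WT 2 at 0.0716) and -0.06 ± 0.19 (adjusted p = 0.895). Zbtb32 did not pass the filter on low counts in either comparison.

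Of 9 listed genes of transitional B cells, 8 were tested in each comparison, and 6 were higher than in follicular-like cells and 7 higher than in marginal zone-like cells, with none lower. The medians were 1.06 and 1.39. Vpreb3 stood at 193, 355, 269 and 172 CPM in the gated cells, against 68.3, 191, 78.5 and 132 CPM in follicular-like and 53.0, 164, 88.3 and 125 CPM in marginal zone-like cells. It was higher in each of the 4 libraries within that library, while the ranges overlapped across libraries, and its differences were 1.12 ± 0.16 and 1.19 ± 0.15 (edgeR adjusted p = 3.78e-04 and 6.32e-05). B lineage cells without any UMI of the gate genes, Cr2 or Fcer2a held Vpreb3 at 84.0, 319, 229 and 208 CPM. That was above the gated cells in Smc3-cKO 2 and below them in the other libraries, so high Vpreb3 was not particular to the gated cells.

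Cd24a, a glycosylated surface protein that falls as B cells mature, stood at 275, 341, 371 and 336 CPM against 144 to 149 CPM and 152 to 208 CPM, without overlap. It rose by 1.19 ± 0.07 and 0.83 ± 0.07. In B lineage cells without any UMI of the gate genes, Cr2 or Fcer2a, Cd24a stood at 169, 225, 260 and 204 CPM, below the gated cells in every library. Akap12, an anchor of protein kinase A, stood at 233, 179, 263 and 111 CPM against 40.6 to 56.3 and 27.6 to 39.5 CPM and rose by 1.95 ± 0.11 and 2.41 ± 0.12. Cd93 rose by 0.99 ± 0.20 and 1.98 ± 0.24, and Myb, a transcription factor of progenitors, by 1.44 ± 0.17 and 2.23 ± 0.19. Myb differed from the others of this list in the split above, with 141, 115, 93.1 and 149 CPM in the core and 52.3, 50.4, 56.1 and 61.9 CPM in the remainder.

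Of 14 tested marginal zone genes, 8 were higher and 1 lower than in follicular-like cells, and 2 were higher and 10 lower than in marginal zone-like cells. The 4 genes Dtx1, S1pr3, Myof and Cd36 were higher than in the former and lower than in the latter. Myof, a membrane repair protein, stood at 33.9, 20.6, 39.1 and 38.4 CPM, against 13.1 to 23.1 CPM in follicular-like and 84.6 to 126 CPM in marginal zone-like cells, with Smc3-WT 2 inside the follicular-like range. S1pr3, a sphingosine phosphate receptor of marginal zone cells, stood at 29.4, 10.1, 18.97 and 14.96 CPM against 2.58 to 6.31 CPM and 32.2 to 48.2 CPM. Its differences were 2.05 ± 0.23 and -1.21 ± 0.20, and the gated cells overlapped with neither class. Plac8 rose over both classes, by 1.29 ± 0.17 and 0.65 ± 0.11, although in Smc3-WT 1 it stood at 286 CPM in the gated and 287 CPM in the marginal zone-like cells. Against all other B lineage cells without a gate UMI, 4 genes of the list were higher and 2 lower.

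Of 10 listed follicular genes, 5 were lower and 2 higher than in follicular-like cells. Satb1, a chromatin organizer, stood at 421, 267, 361 and 259 CPM against 657 to 798 CPM and had a difference of -1.16 ± 0.09. Satb1 did not overlap with follicular-like cells and was also lower than in marginal zone-like cells (-0.75 ± 0.08). Klf2 and Zbtb20 were the 2 higher genes, at 0.27 ± 0.07 and 0.34 ± 0.09. Klf2 did not pass without Smc3-WT 1, Smc3-WT 2 or Smc3-cKO 1 (adjusted p = 0.162, 0.185 and 0.13), nor Zbtb20 without Smc3-WT 2 or Smc3-cKO 2 (0.158 and 0.057).

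Immunoglobulin genes split by isotype and light chain. Ighm, the IgM heavy chain, stood at 3319, 3922, 3424 and 3593 CPM in the gated cells, against 2034 to 2532 CPM in follicular-like and 1871 to 2312 CPM in marginal zone-like cells. It rose by 0.68 ± 0.07 and 0.78 ± 0.08 (edgeR adjusted p = 1.09e-05 and 6.25e-06), without overlap. Ighd, the IgD heavy chain of mature follicular cells, stood at 493, 529, 646 and 643 CPM against 794 to 1343 CPM and 646 to 1008 CPM and differed by -0.96 ± 0.07 and -0.56 ± 0.07 (edgeR adjusted p = 1.86e-06 and 7.16e-05). It did not overlap with follicular-like cells, and its highest gated library equalled the lowest marginal zone-like library.

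The lambda constant gene Iglc1 stood at 439, 671, 601 and 460 CPM against 123 to 304 CPM and 92.5 to 261 CPM, without overlap. It rose by 1.40 ± 0.09 and 1.69 ± 0.12 (edgeR adjusted p = 4.84e-07 and 1.84e-07). Iglc2 and Iglc3 rose by 0.52 ± 0.07 and 0.34 ± 0.10 over follicular-like cells, and the Iglc3 call was lost without Smc3-WT 1 or Smc3-cKO 1 (adjusted p = 0.147 and 0.156). These near-identical copies may share reads, so the split among them is uncertain. Igkc, the kappa chain, did not pass against follicular-like cells (0.12 ± 0.09, adjusted p = 0.454). In all, 5 of 8 tested constant genes were higher than in follicular-like cells and 1 lower, with 3 higher without Smc3-WT 1. Against marginal zone-like cells 6 were higher and 1 lower, with 3 higher without Smc3-cKO 1 and 4 without Smc3-WT 2.

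The list of B cell receptor signalling genes was higher in 13 of 23 and lower in 2 against follicular-like cells. Within the gated cells, 15 of the 23 were lower and 4 higher in the core than in the remainder in all 4 libraries. Siglecg, the inhibitory lectin that restrains B1 cell signalling, stood at 329, 238, 333 and 191 CPM against 158 to 203 CPM and rose by 0.58 ± 0.08 (edgeR adjusted p = 2.52e-04), with only Smc3-cKO 2 inside the follicular-like range. Ptpn22, a phosphatase of antigen receptor signalling, stood at 152, 255, 200 and 308 CPM against 59.3 to 153 CPM and rose by 1.26 ± 0.25, with ranges that just overlapped. The kinases Lyn and Syk rose by 0.46 ± 0.07 and 0.30 ± 0.06. Cd22, an inhibitory lectin, and Fcrl1 were lower, at -0.39 ± 0.08 (lost without Smc3-WT 2, adjusted p = 0.0868) and -0.70 ± 0.08. Against marginal zone-like cells 8 were higher and 3 lower, with 4 higher without Smc3-cKO 1 and 5 without Smc3-WT 1 or Smc3-WT 2.

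Class II antigen presentation genes were lower in the gated cells as a group. Of 16 tested genes of class II presentation and costimulation, 11 were lower and 2 higher than in follicular-like cells (median -0.64), and 11 were lower and 1 higher than in marginal zone-like cells (median -0.59). Ciita, the class II transactivator, stood at 178, 176, 206 and 154 CPM against 321 to 354 CPM and 246 to 345 CPM, without overlap. It differed by -0.86 ± 0.07 and -0.72 ± 0.08 (edgeR adjusted p = 1.92e-06 and 8.83e-06).

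H2-Ab1, a class II beta chain, stood at 477, 500, 432 and 496 CPM against 798 to 868 CPM and 701 to 916 CPM and differed by -0.76 ± 0.06 and -0.68 ± 0.08, also without overlap. H2-Aa, H2-Eb1, H2-DMb1, H2-DMb2 and H2-Oa were lower in both comparisons, from -0.85 to -0.51. The 2 higher genes against follicular-like cells were Cd80 and Cd86, the latter at 0.43 ± 0.13 (edgeR adjusted p = 0.0428) and lost without any library but Smc3-WT 1 (0.078 to 0.183).

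**Figure D4:**
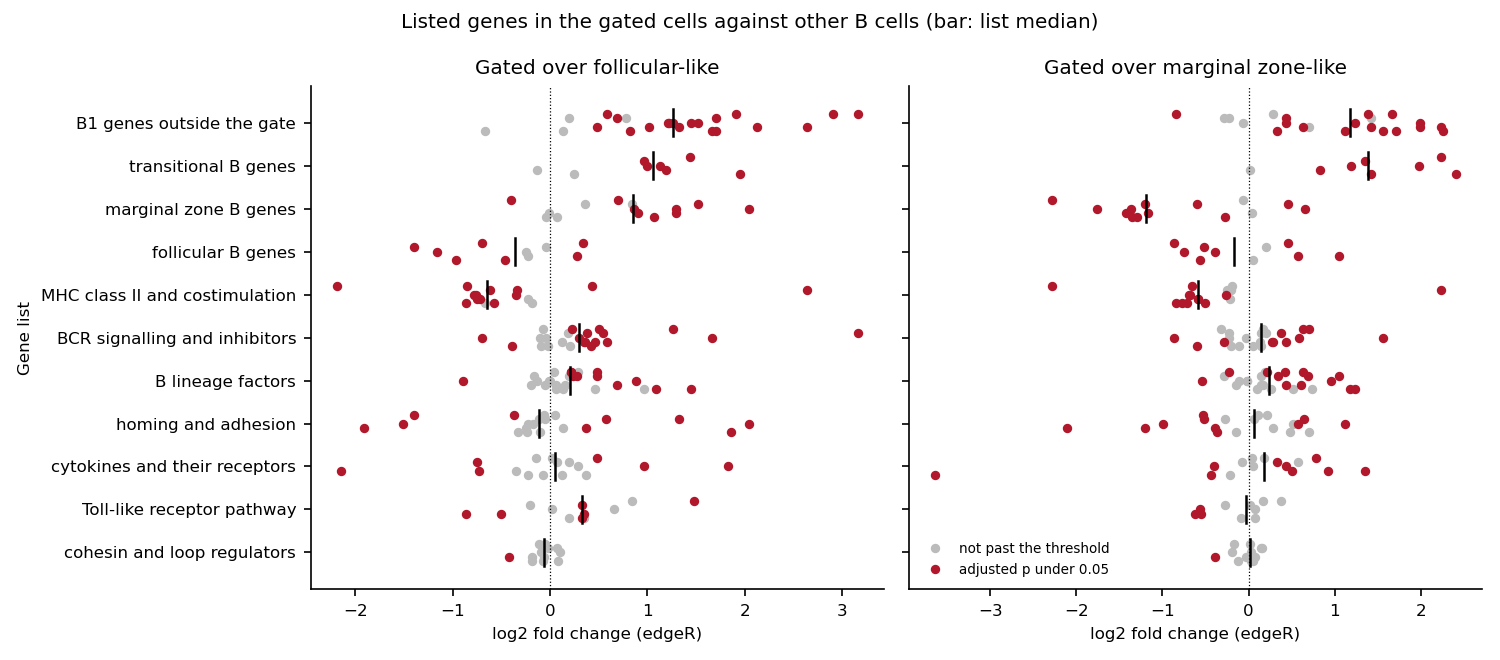
Log2 fold change (x axis, edgeR) of each tested gene of 11 lists (rows) in the gated cells over follicular-like (left) and marginal zone-like cells (right), 1 point per gene, red where the adjusted p was under 0.05, with a bar at the list median. The B1 list had medians of 1.26 and 1.18, the class II and costimulation list -0.64 and -0.59.

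Homing genes went both ways. Of 20 tested, 5 were higher and 4 lower than in follicular-like cells, and 3 of 19 were higher and 7 lower than in marginal zone-like cells (6 higher without Smc3-WT 1). Gpr183, the oxysterol receptor that guides B cells in follicles, stood at 44.4, 79.0, 54.6 and 76.8 CPM against 137 to 233 CPM and 114 to 148 CPM and differed by -1.51 ± 0.08 and -0.997 ± 0.10, without overlap. Itgb1, the integrin beta 1 chain, stood at 85.8, 107, 111 and 176 CPM against 38.4 to 64.1 CPM and 39.8 to 80.7 CPM and rose by 1.32 ± 0.18 and 1.12 ± 0.19. Cd44, the hyaluronan receptor, rose by 0.58 ± 0.10 and 0.64 ± 0.11.

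Among cytokine receptors, Csf2rb, the beta chain that pairs with the interleukin 5 receptor alpha chain of the gate, stood at 26.3, 40.7, 33.9 and 55.9 CPM against 7.38 to 13.2 CPM and 17.7 to 24.1 CPM. It rose by 1.83 ± 0.24 and 0.92 ± 0.18 (edgeR adjusted p = 1.51e-04 and 0.00292), without overlap. Il9r, the interleukin 9 receptor, stood at 3.76, 4.31, 2.30 and 4.55 CPM against 10.5 to 26.9 CPM and 34.4 to 81.5 CPM, with differences of -2.14 ± 0.31 and -3.64 ± 0.27. Il10, Il6 and Csf2, cytokines known from innate-like B cells, did not pass the filter on low counts, and Il10 stood at 0 to 1.30 CPM. In the list, 3 of 16 were higher and 3 lower than in follicular-like cells, and 6 of 15 were higher and 3 lower than in marginal zone-like cells (1 lower without Smc3-WT 2).

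Among 12 Toll-like receptor pathway genes tested against follicular-like cells, 4 were higher and 2 lower. Ly96, the MD-2 co-receptor of endotoxin, stood at 31.6, 23.0, 28.2 and 25.4 CPM against 8.39 to 13.3 CPM and rose by 1.48 ± 0.18. Against marginal zone-like cells 0 of 10 were higher and 3 lower by edgeR, whereas DESeq2 called 0 in either direction.

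Transcription factors of the B lineage were higher in 10 of 26 and lower in 1 against follicular-like cells, with 6 higher without Smc3-WT 2. Zeb2, a zinc finger repressor of innate-like and age-associated B cells, stood at 1450, 1154, 1525 and 986 CPM against 537 to 656 CPM and 468 to 650 CPM and rose by 1.08 ± 0.07 and 1.18 ± 0.08 (edgeR adjusted p = 5.11e-07 and 1.56e-07). Arid3a, a factor of fetal-type B cell development, stood at 88.0, 75.7, 85.1 and 91.1 CPM against 26.6 to 34.9 CPM and 30.8 to 41.7 CPM and rose by 1.45 ± 0.11 and 1.24 ± 0.13. Spib, an ETS factor related to PU.1, stood at 167, 216, 286 and 204 CPM against 96.3 to 141 CPM and 91.0 to 131 CPM and rose by 0.89 ± 0.07 and 0.95 ± 0.09. These 3 genes were without overlap between classes, and Spi1, which encodes PU.1, did not pass in either comparison (0.06 ± 0.09 and 0.14 ± 0.11, adjusted p = 0.753 and 0.498). Bcl6, the germinal centre repressor, was lower in both (-0.89 ± 0.13 and -0.54 ± 0.13, the latter lost without Smc3-WT 2 or Smc3-cKO 2 at 0.0533 and 0.0638).

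Of 12 genes of cohesin and its regulators, 0 were higher and 1 was lower in each comparison, a share near that of all genes called lower (5% and 5.85%). The gene was Wapl, the factor that releases cohesin from chromatin, at 143, 138, 132 and 198 CPM against 192 to 230 CPM and 164 to 239 CPM, with differences of -0.42 ± 0.08 and -0.39 ± 0.09 (edgeR adjusted p = 0.00196 and 0.00844), lower in every library although the ranges overlapped. Against marginal zone-like cells the call was lost without Smc3-WT 2 (0.0558).

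Markers of other cell types were measured beside these results. The summed level of 11 T cell markers was 450, 208, 177 and 187 CPM in the gated cells and 511, 161, 211 and 231 CPM in follicular-like cells, and 0 of 10 tested genes differed. The 7 red cell and platelet markers summed to 6142, 495, 1850 and 68.3 CPM against 13050, 458, 3639 and 155 CPM, and 5 of 6 tested genes were lower in the gated cells by edgeR, 2 of 5 without Smc3-WT 1 or Smc3-cKO 1 and none by DESeq2. None of the T cell, NK cell, myeloid, dendritic or red cell and platelet markers stood at 0 in all gated cells. The part of the red cell and platelet markers in the class differences was not tested. Among cells with at most 1 UMI of T cell, NK cell, myeloid or dendritic cell markers, 17 of 19 tested B1 genes were higher and 1 lower than in follicular-like cells.

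Heavy and light chain V segments listed for B1 cells were rare in these 3′ libraries. Ighv11-2 was detected in 3 of 379, 6 of 624, 0 of 376 and 7 of 425 gated cells, and in none of the follicular-like or marginal zone-like cells of any library. The 0 in Smc3-cKO 1 allows a share of up to 0.798%. The mean share was 0.85% ± 0.677 (SD of the difference to either class, n = 4 libraries), higher in 3 of 4 libraries, with an exact two-sided sign-flip permutation p of 0.25 (0.6 after Benjamini-Hochberg adjustment over 12 comparisons). Of the 16 cells, 2, 4, 0 and 7 were core cells.

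Igkv14-126, the kappa segment that pairs with Ighv11-2 in phosphatidylcholine-binding B1a receptors, was detected in 2, 3, 1 and 3 gated cells. The mean share was 0.495% against 0.0411% in follicular-like and 0.109% in marginal zone-like cells, higher in 4 of 4 libraries (exact permutation p = 0.125, the smallest that 4 libraries allow, adjusted 0.6). With cells thinned to 1500 UMIs its mean share was 0.293%, higher in 3 of 4 libraries (exact permutation p = 0.25). The other 4 segments tested (Ighv12-3, Igkv4-91, Ighv7-1 and Ighv6-6) had mean shares of 0.0989% to 0.186% in the gated cells. None was higher than in follicular-like or marginal zone-like cells in more than 2 of 4 libraries. In follicular-like cells the mean share was 0.118% for Ighv7-1, 0.0603% for Ighv6-6 and 0 for the others. Ighv7-1 and Ighv6-6 had no UMI in the core, and Ighv12-3 and Igkv4-91 had none in the remainder or in thinned gated cells. The thinned mean share of Ighv11-2 was 0.37%. Segments of one family share sequence, and their counts are uncertain to that extent.

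The genotypes did not separate by the number of gated cells. Their share of the B lineage was 7.58% and 8.42% for Smc3-WT, against 10.9% and 6.15% for Smc3-cKO. The means were 8.0% ± 0.598 and 8.52% ± 3.36 (SD, n = 2 each), and the exact two-sided permutation p was 1.0, where 2 libraries against 2 cannot go below 0.33. Of all kept cells they made up 3.1% and 4.47% against 5.27% and 3.13% (exact permutation p = 0.667). For the share of the B lineage the Smc3-cKO libraries lay on either side of the Smc3-WT libraries, and for the share of kept cells Smc3-cKO 2 lay between them. The core share gave means of 20.7% ± 10.6 and 29.1% ± 14.1 (n = 2 each) with overlapping libraries.

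Smc3 itself stood at 114 and 112 CPM in the gated cells of Smc3-WT and at 97.7 and 123 CPM in those of Smc3-cKO, so its RNA did not separate the genotypes in these cells. The labels do not give the deleted exons or the cells in which the deletion acts, and 3′ reads outside a deleted part would not report it. In follicular-like cells Smc3 stood at 108 and 109 CPM against 99.96 and 114 CPM.

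Between genotypes, 9474 genes were tested in the gated cells with edgeR's quasi-likelihood test (2 libraries against 2), and 0 (0%) passed the adjusted threshold, with 182 at an unadjusted p under 0.05. DESeq2 called 4, and leaving out a library gave 2 (without Smc3-cKO 2), 9 (without Smc3-WT 1), 13 (without Smc3-cKO 1) and 16 (without Smc3-WT 2). On data simulated at this size, 22.2% of 2-fold and 85.3% of 4-fold changes were recovered. The simulation gave each gene the trend of the dispersion and no spread of its own. These shares may therefore be too high for the measured libraries, and 0 calls do not show that 4-fold changes were absent. The genotypes did not overlap for 24.2% of the genes (14.5% higher and 9.72% lower in Smc3-cKO). None of the 24 gene lists had a called member. The B1 list had a median log2 difference of 0.23 and the class II and costimulation list 0.0035, against -0.0070 over all genes.

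The genes with the lowest p are given as values. Plcb4, a phospholipase C of G protein signalling (chromosome 2, 135658603 to 136014602), stood at 9.03 and 12.0 CPM in Smc3-WT and at 171 and 78.7 CPM in Smc3-cKO. It had UMIs in 4 and 12 cells against 126 and 78 cells, and the genotypes did not overlap. The log2 difference was 3.49 ± 0.43 with an edgeR adjusted p of 0.186, which DESeq2 gave as 1.73e-08 and which was between 5.14e-05 and 0.00169 when any library was left out. In follicular-like cells Plcb4 stood at 4.55 and 4.01 CPM against 87.2 and 63.4 CPM, so the difference was not limited to the gated cells.

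Tenm4, a teneurin, stood at 12.0 and 24.4 CPM in Smc3-WT and at 64.4 and 82.6 CPM in Smc3-cKO (1.91 ± 0.36, edgeR adjusted p = 0.711, and under the threshold without Smc3-WT 2 or Smc3-cKO 1 at 0.00444 and 0.0199 and with the replicate number as a block at 3.08e-05), against 16.1 to 19.97 CPM and 14.1 to 18.5 CPM in follicular-like cells. A single cell held 70 of the 112 Tenm4 UMIs of Smc3-cKO 1 and 24 of the 127 of Smc3-cKO 2, and 83 of the 112 and 64 of the 127 were in cells with at least 2 other-lineage UMIs. Lyz2, the lysozyme of myeloid cells, stood at 45.2 and 45.5 CPM against 159 and 96.3 CPM (1.45 ± 0.29, adjusted p = 0.905). In Smc3-cKO, 271 of 277 and 137 of 148 Lyz2 UMIs were in cells with at least 2 other-lineage UMIs, and among cells with at most 1 the difference was -0.64. Slc8a1 and Rap1gap2, the other genes given in this direction, differed by 1.07 ± 0.30 and 0.87 ± 0.27 (edgeR adjusted p = 0.9999 each).

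In the lower direction, Ccl5, a chemokine of T and NK cells, stood at 115 and 31.6 CPM in Smc3-WT and at 3.45 and 7.16 CPM in Smc3-cKO. The difference was -3.80 ± 0.68 (edgeR adjusted p = 0.711, and under the threshold without Smc3-WT 1, Smc3-WT 2 or Smc3-cKO 1 at 0.0231, 2.78e-07 and 0.0232). Gm31243, a predicted gene, stood at 158 and 169 CPM against 75.3 and 105 CPM (-0.91 ± 0.24), and at 242 and 252 CPM against 87.2 and 183 CPM in follicular-like cells. The other 3 genes given in this direction, 5330438D12Rik, Gm16599 and Gm48678, differed by -1.25, -1.47 and -1.03. Whether these transcripts overlap other genes was not examined, and the strand setting of the counting is not given in the sources used here.

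**Figure D5:**
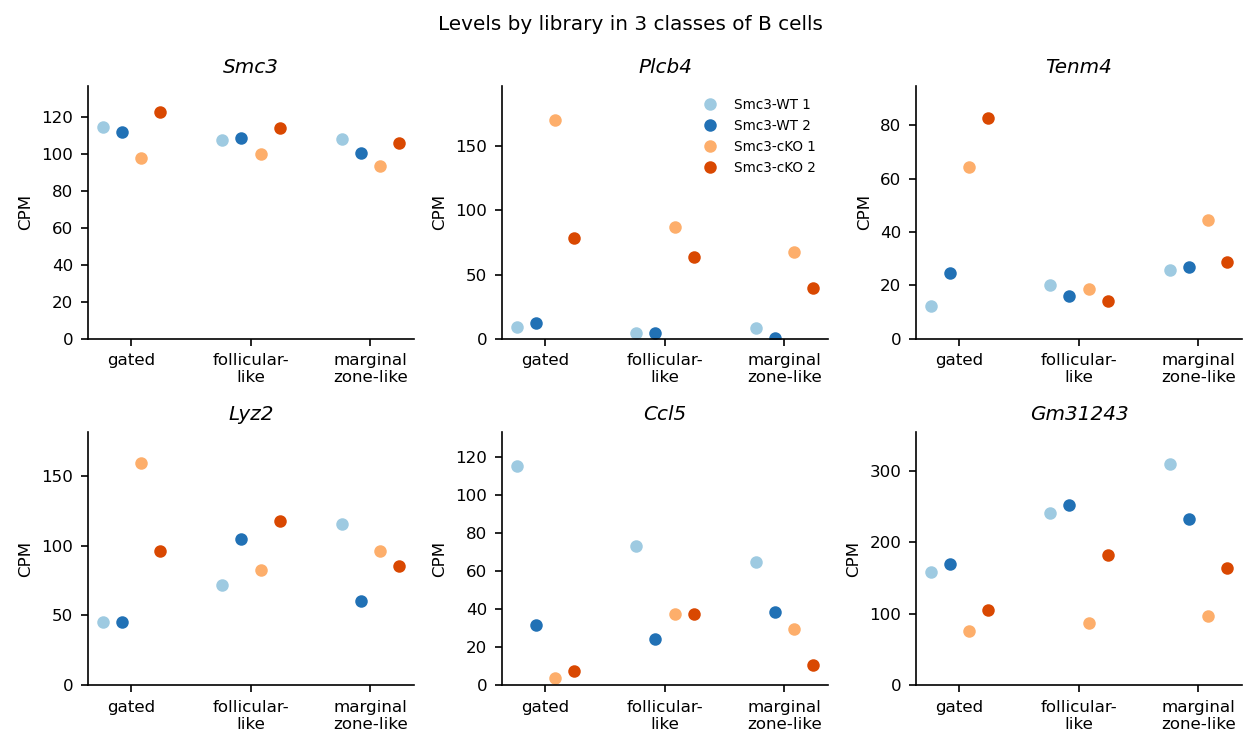
Levels of 6 genes (y axis, CPM, from 0) in gated, follicular-like and marginal zone-like cells, 1 point per library. Smc3 did not separate the genotypes, Plcb4 was higher in both Smc3-cKO libraries in all 3 classes (171 and 78.7 against 9.03 and 12.0 CPM in the gated cells), and Ccl5 was lower in both Smc3-cKO libraries in the gated cells.

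To ask whether the genotype difference was unlike that in follicular-like cells, the difference between the 2 was tested for 10733 genes with edgeR's quasi-likelihood test, and 1 gene (0.00932%), Ccl5, passed. Its difference was larger in the gated cells by -3.37 log2 units (SE 0.34, adjusted p = 0.00769). In follicular-like cells Ccl5 stood at 72.9 and 24.4 CPM in Smc3-WT and at 37.4 and 37.3 CPM in Smc3-cKO. Of the 153 and 66 Ccl5 UMIs in the gated cells of Smc3-WT, 147 and 64 were in cells with at least 2 other-lineage UMIs. Of the 6 and 11 UMIs in Smc3-cKO, 2 and 11 were.

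The 7 NK cell markers, of which Ccl5 is 1, summed to 193 and 80.0 CPM in the gated cells of Smc3-WT and to 16.1 and 32.5 CPM in those of Smc3-cKO, and the T cell markers to 450 and 208 against 177 and 187 CPM. The Ccl5 call was lost without Smc3-WT 1 (adjusted p = 0.194), without Smc3-cKO 1 (0.0562) and without called doublets (1.0). Among cells with at most 1 other-lineage UMI the sign turned, to 0.16 ± 1.36.

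Interferon-stimulated genes also followed a single library. The 19 genes summed to 1063, 1123, 2111 and 909 CPM in the gated cells and to 1051, 946, 1523 and 1025 CPM in follicular-like cells, highest in Smc3-cKO 1 in both. None of the 17 tested genes differed between genotypes.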

How the data were processed

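Cell Ranger 7.0.0 made the deposited counts (UMIs per gene and barcode, 32285 genes) from Chromium Single Cell 3′ libraries, per the file headers. The submitters' processing notes name mm10, and the strand setting is not given in the sources used here. The cells, gene lists and tests were chosen with earlier results of these data known. Cells were kept at 200 or more genes and at most 10% mitochondrial UMIs, classes were set by UMI thresholds, and doublets were called with Scrublet but kept. Scrublet marked 1.03% to 6.41% of the kept cells per library, against an expected 7.26% to 12.9%. UMIs were summed per library and class and tested with edgeR 4.0.16 (filterByExpr, TMM, quasi-likelihood test, Benjamini-Hochberg adjustment at 0.05). Named genes were the 15 per direction (10 for genotype) with the largest change past the threshold, on the same side in every library and at 50 CPM or more, leaving out immunoglobulin, mitochondrial and ribosomal protein genes. Where fewer than 5 passed, the 5 with the lowest p were given, and genes of the lists could be named too. Shares were compared by exact permutation. Clusters came from scanpy 1.11.5. DESeq2 1.42.0, RLE size factors, no count filter, left-out libraries, doublets removed, a gate of at least 3 UMIs, stricter cell filters, thinning to 1500 UMIs, a wider comparator and a replicate block were the alternatives. The limit of at most 1 other-lineage UMI was added after the data were seen. The fits were tested on simulated data. Some named results are not reported here.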

Additional observations from a re-analysis of the deposited data

Results flagged for a closer look

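The genotype difference of Ccl5 was unlike that in follicular-like cells by -3.37 log2 units (SE 0.34, edgeR adjusted p = 0.00769), lower in both Smc3-cKO libraries of the gated cells, and it drew attention because the difference between the cell classes itself passed the test. Nearly all Ccl5 UMIs of the Smc3-WT gated cells (147 of 153 and 64 of 66) were in cells with at least 2 UMIs of other-lineage markers. Without called doublets the adjusted p was 1.0.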

How the results depend on the processing

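The genotype comparison in the gated cells called 0 genes, against 4 by DESeq2, 52 without a filter on low counts, 2 to 16 with a library left out and 35 with the replicate number as a block. Calls against follicular-like cells numbered 1217, against 659 by DESeq2, 783 with stricter cell filters and 750 to 1095 with a library left out. Calls against marginal zone-like cells numbered 1268, against 614 by DESeq2, 723 with stricter cell filters and 758 to 1130 with a library left out. The comparison of genotype differences called 1 gene, against 18 without a filter, 0 to 14 with a library left out, 0 without doublets, 0 with at most 1 other-lineage UMI and 21 with the block. With at most 1 other-lineage UMI the sign turned for Lyz2 between genotypes (-0.64), Ccl5 between genotype differences (0.16) and S100a8 against marginal zone-like cells (0.15). With all other B lineage cells as comparator it turned for Dtx1 (-0.32), Ikzf1 (-0.0068) and Myof (-0.33). The causes were not tested. Of the named and listed genes, 47 against follicular-like and 50 against marginal zone-like cells lost a call in at least 1 alternative. Same-numbered libraries share only a number in the labels, and their deviations correlated at 0.405 over 9484 genes. The 2 libraries per genotype limit what the genotype test can detect.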
